A study of Caenorhabditis elegans with 6 samples.

Results

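The cytosolic ribosomal protein genes of C. elegans were taken as all protein-coding genes named rpl- (large subunit) or rps- (small subunit) in the Ensembl annotation of the WBcel235 genome. There were 78 of them among 19973 nuclear protein-coding genes, 47 for the large and 31 for the small subunit. The measurement was a genome-wide map of HIF-1, the hypoxia-inducible transcription factor, made by chromatin immunoprecipitation (ChIP) of HIF-1 fused to GFP from whole L4 larvae grown at 20 °C on OP50 bacteria in room air. In each strain the endogenous hif-1 gene carried the ia4 deletion, with unc-119(ed3) in the background, and both had odIs131, a single integrated line of a genomic transgene that expresses the fusion protein and an unc-119 rescue. The control strain (OR3349) had no further mutation named by the labels, and the egl-9 strain (OR3350) also carried the egl-9 allele sa307. EGL-9 is a prolyl hydroxylase that uses oxygen to mark HIF-1 for destruction, so HIF-1 accumulates in its absence. Each genotype had 2 ChIP libraries and 1 input library. The authors reduced them to 1 list of reproducible peaks per genotype, with 604 nuclear peaks for egl-9 mutants and 52 for control animals, so no value has a replicate error. The study's methods give the reads of its libraries only as a range over all of them, so the depth of each one is not known. Because whole animals were used, the tissue in which a site was occupied is not known from these data.

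The ribosome reads mRNA on its small subunit and joins amino acids on its large subunit, and each subunit is ribosomal RNA covered with proteins encoded by genes such as these. These genes are among the most actively transcribed in growing animals, and several carry small nucleolar RNA (snoRNA) genes in their introns, whose products guide chemical modification of ribosomal RNA. HIF-1 binds DNA with its partner AHA-1 at the hypoxia response element (HRE), whose core has either A or G before the letters CGTG. Lowered protein synthesis is a known response of animal cells to low oxygen, mediated largely through translation factors. Binding of HIF-1 next to a gene does not by itself say that the gene's transcription changes, and no expression value was used here.

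A member was called bound when the centre of a peak lay within 1000 bp of any of its annotated transcription start sites (TSSs). In egl-9 mutants 17 of 78 members were bound (21.8%, Wilson 95% interval 14.1 to 32.2%, which covers the sampling of genes only), and 2.27% of all protein-coding genes were near a peak of that list. In control animals 2 of 78 members were bound, rpl-3 and rpl-15 (2.56%, interval 0.706 to 8.88%), beside 0.140% of all protein-coding genes. Both genes were also bound in egl-9 mutants. No set test was made of these shares. The study reports that most of its HIF-1 sites in egl-9 mutants were in or near regions where many other transcription factors also bind. It describes such regions as possibly sticky and a source of false ChIP signals. It also reports that many of the sites it assigned to target genes lay in such regions. Genes at those sites changed expression with HIF-1, and the study proposes that these sites are functional. Whether the member peaks lie in such regions was not tested. Each bound member had 1 peak, and no peak served more than 1 member.

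The sequences at these peaks are shown first, because several comparisons that follow turn on the form of the HRE core. They were read from WBcel235 at the peaks of egl-9 mutants and are printed for 8 of the members whose peak lay on chromosome II, III or IV. The lines hold each core found within 100 bp of the peak centre with 8 bases to each side, turned so that the core, in capitals, reads from its first base to the final G.
rpl-20: gttttgttGCGTGttctatta
rpl-35 first core: acctaggaGCGTGttttagtg
rpl-35 second core: aaaaggggGCGTGgtcgaggc
rpl-15: attgtggaGCGTGtttcgagt
rps-1: gtcacagcGCGTGagagacat
rps-12: agcttcccGCGTGcaagtctc
rps-18 first core: cactgtcgGCGTGtgcggtgc
rps-18 second core: ctcgttttGCGTGtgtccact
rps-0: gaagagacGCGTGtgtagatt
rpl-22: gcggcaaaACGTGaacaattt
The core began with G in every line but that of rpl-22. At rpl-15 and the first core of rpl-35 it was preceded by GGA and followed by TTT.

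Whole windows, of 100 bp to each side of the peak centre, are shown for rpl-20, rpl-35 and rpl-15, the strongest members after rpl-3, for rps-1 as the strongest small subunit gene, and for rps-28 as a window without a core (2 lie in the rest of its peak). They are printed in the direction of the member's transcription and hold no annotated UTR. The core is in capitals, and it reads CACGC where it lies on the other strand.
rpl-20 (IV:4749986-4750186): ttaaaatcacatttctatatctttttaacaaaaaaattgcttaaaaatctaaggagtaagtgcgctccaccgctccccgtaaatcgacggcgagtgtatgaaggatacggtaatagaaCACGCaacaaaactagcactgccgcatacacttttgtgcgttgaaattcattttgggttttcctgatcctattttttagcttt
rpl-35 (III:7854580-7854780): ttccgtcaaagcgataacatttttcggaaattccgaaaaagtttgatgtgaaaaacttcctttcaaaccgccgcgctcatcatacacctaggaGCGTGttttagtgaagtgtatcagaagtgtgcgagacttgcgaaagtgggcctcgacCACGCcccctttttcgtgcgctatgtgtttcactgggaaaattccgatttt
rpl-15 (IV:654843-655043): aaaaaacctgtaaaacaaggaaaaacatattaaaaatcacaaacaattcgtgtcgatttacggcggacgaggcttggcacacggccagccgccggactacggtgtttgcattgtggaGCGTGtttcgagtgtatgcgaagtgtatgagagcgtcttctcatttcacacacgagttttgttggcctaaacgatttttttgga
rps-1 (III:4475564-4475764): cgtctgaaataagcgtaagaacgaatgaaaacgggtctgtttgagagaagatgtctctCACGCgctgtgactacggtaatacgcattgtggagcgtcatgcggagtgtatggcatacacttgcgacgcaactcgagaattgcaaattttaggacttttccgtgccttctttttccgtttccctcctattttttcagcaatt
rps-28 (IV:1659131-1659331): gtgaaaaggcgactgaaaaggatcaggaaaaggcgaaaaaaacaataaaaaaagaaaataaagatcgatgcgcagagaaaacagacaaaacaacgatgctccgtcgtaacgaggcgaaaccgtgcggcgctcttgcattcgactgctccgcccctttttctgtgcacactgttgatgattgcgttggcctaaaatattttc
The core lay 20 bp from the peak centre at rpl-20 and 19 bp at rpl-15. At rpl-35 one core lay 5 bp and the other 52 bp from the centre. The G + C content of these windows ran from 37.3% at rpl-20 to 45.3% at rpl-35, and the median over all 17 member windows was 44.3%, against 45.3% over 344 windows at peaks near other protein-coding genes only.

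The strongest member was rpl-3, whose product lies close to the catalytic centre of the large subunit in other eukaryotes. Its peak in egl-9 mutants had a signal of 342, the value given by the authors' peak caller, which ranked 11 of 604. The centre lay 271 bp upstream of the nearest of its TSSs, and no other protein-coding gene had a TSS within 1000 bp. In control animals a peak with a signal of 280 lay at the same place, its centre 306 bp upstream, and ranked 6 of 52. The lists have no common scale, so the 342 and the 280 cannot be set against each other as amounts of binding.

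Next were rpl-20, which encodes another large subunit protein, and rpl-35, whose protein sits at the exit of the peptide tunnel. The peak at rpl-20 (IV:4749993-4750179) had a signal of 220 and ranked 26, and the peak at rpl-35 (III:7854617-7854744) had a signal of 212 and ranked 32. The centres lay 308 bp and 454 bp upstream. Neither gene was near a control peak, and the nearest control peak centre was 89472 bp from the rpl-20 peak and 2904599 bp from the rpl-35 peak. rpl-15, for a large subunit protein buried in the ribosomal RNA, had a lower signal of 198 in egl-9 mutants (rank 41, IV:654861-655026, 367 bp upstream). It did have a control peak, with a signal of 172, rank 25 and a centre 351 bp upstream. The order of the signals in egl-9 mutants therefore did not follow which members were also in the control list.

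The lowest signal was 141 in the control list and 54.4 in the list of egl-9 mutants. In egl-9 mutants 4 members (rpl-3, rpl-20, rpl-35 and rpl-15) had a signal at or above 141 and 13 lay below it. Without a common scale this does not say how strong a site had to be to enter the control list. Both values are minima over nuclear peaks only, and they differ from the lowest enrichment values that the study's methods state for its lists. Whether the mitochondrial peaks left out here account for the difference was not tested. For a member without a control peak, undetected and absent binding cannot be told apart.

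**Figure D1:**
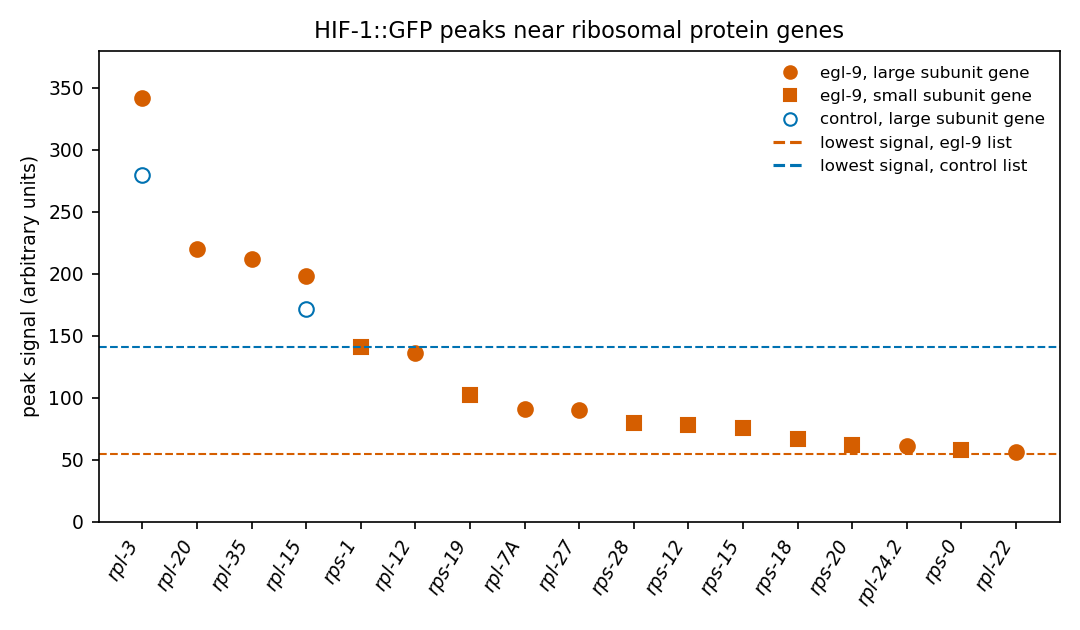
Signal of the peak near each bound ribosomal protein gene (y axis, arbitrary units of the authors' peak caller), with genes ordered by their signal in egl-9 mutants; filled circles are large and filled squares small subunit genes in egl-9 mutants, open circles the control list, and dashed lines the lowest signal of each list. The 4 strongest genes, all of the large subunit, sit between 198 and 342, while 13 genes lie below the lowest control signal of 141 (rps-1 just under it).

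Among the remaining large subunit genes, rpl-12 encodes a protein at the base of the stalk that receives translation factors. Its peak (IV:13240463-13240906) had a signal of 136, ranked 91 and was centred 33 bp upstream of a TSS. rpl-7A, a snoRNA host in worms as in people, had a peak (IV:4390436-4390879) with a signal of 91 and rank 205, centred 67 bp upstream. Neither window held a core. rpl-27 was the only member with the peak downstream of its TSS. That peak (signal 89.9, rank 213) was centred 704 bp from the rpl-27 TSS but 74 bp upstream of egl-30, the gene for a G protein alpha subunit, and 193 bp upstream of C53H9.4. It held 4 cores, all with G first, the most of any member, in a window of 62.7% G + C.

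The weakest large subunit peaks belonged to rpl-24.2 and rpl-22. rpl-24.2, whose human counterpart acts in assembly of the large subunit, had a signal of 61.5 (rank 460, 148 bp upstream) and no core in the window or the rest of the peak. Its paralog rpl-24.1 was 116233 bp from the nearest peak. rpl-22 (II:5055080-5055523) had a signal of 56 and ranked 572, near the end of the list. It was the only member whose window held the core with A first, and ify-1, which encodes the worm securin, shared the peak at 122 bp.

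Small subunit genes had peaks from 58.2 to 141, with a median signal of 77.1 over 8 genes, and large subunit genes from 56 to 342, with a median of 136 over 9. The ranges overlapped from 58.2 to 141. rps-1, the counterpart of human RPS3A, led the small subunit with a signal of 141 (rank 87, III:4475443-4475886, 254 bp upstream). rps-19, whose human counterpart is mutated in Diamond-Blackfan anaemia, followed with a signal of 102 (rank 163, 326 bp upstream). rps-28, whose protein lies near the mRNA exit, had a signal of 79.6 (rank 279, IV:1659010-1659453, 460 bp upstream).

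The next small subunit genes encode proteins of the head of that subunit, apart from rps-0. rps-12 had a signal of 78.4 (rank 292, III:5678896-5679339, 181 bp upstream). rps-15 had a signal of 75.9 (rank 307, 325 bp upstream). rps-18 had a signal of 67 (rank 376, IV:14824811-14825254) with the centre 647 bp upstream, the farthest upstream of any member. rps-20 had a signal of 62 (rank 453, 252 bp upstream). rps-0, which encodes the counterpart of human RPSA, had the lowest small subunit signal at 58.2 (rank 532, III:4754158-4754601, 328 bp upstream). Of these 5, rps-12, rps-18 and rps-0 had a core with G first in the window and rps-15 and rps-20 had none.

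Member peaks were 17 of the 604 nuclear peaks of egl-9 mutants (2.81%, interval 1.76 to 4.46%), with ranks from 11 to 572. None was among the 10 strongest peaks, 4 were among the 50 strongest, 6 among the 100 strongest and 11 among the 302 strongest. The median signal was 89.9 over the 17 member peaks and 74.5 over the 344 peaks near other protein-coding genes only, given as a description without a test.

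Bound members did not differ detectably between the subunits. In egl-9 mutants 9 of 47 large subunit genes (19.1%, interval 10.4 to 32.5%) and 8 of 31 small subunit genes (25.8%, interval 13.7 to 43.2%) were bound, with an odds ratio of 0.684 (95% interval 0.201 to 2.35, Fisher exact p = 0.578, two-sided). This was 1 of 5 such tests, and after Benjamini-Hochberg adjustment over them p was 0.739. The interval spans values on both sides of 1, so a difference in either direction remains possible. Genes are not replicate samples, and these tests describe the lists at hand.

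The unbound members were rpl-1, rpl-10, rpl-11.1, rpl-11.2, rpl-13, rpl-14, rpl-16, rpl-17, rpl-18, rpl-19, rpl-2, rpl-21, rpl-23, rpl-24.1, rpl-25.1, rpl-25.2, rpl-26, rpl-28, rpl-29, rpl-30, rpl-31, rpl-32, rpl-33, rpl-34, rpl-36, rpl-36.A, rpl-37, rpl-38, rpl-39, rpl-4, rpl-41.1, rpl-41.2, rpl-42, rpl-43, rpl-5, rpl-6, rpl-7 and rpl-9 in the large subunit and rps-10, rps-11, rps-13, rps-14, rps-16, rps-17, rps-2, rps-21, rps-22, rps-23, rps-24, rps-25, rps-26, rps-27, rps-29, rps-3, rps-30, rps-4, rps-5, rps-6, rps-7, rps-8 and rps-9 in the small subunit. None had its nearest peak between 1000 and 2000 bp. The bound member with the most distant centre, rpl-27, was at 704 bp, and the nearest unbound member, rpl-29, was at 5158 bp, followed by rps-5 at 8252 bp, rpl-5 at 8496 bp, rps-11 at 8837 bp and rpl-31 at 9679 bp. No member fell between 1000 and 5000 bp, an interval that held 4.14% of all protein-coding genes. The median distance over unbound members was 54120 bp and the largest 619950 bp, at rps-27. Over all members the median was 46430 bp, and over all protein-coding genes 74949 bp.

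**Figure D2:**
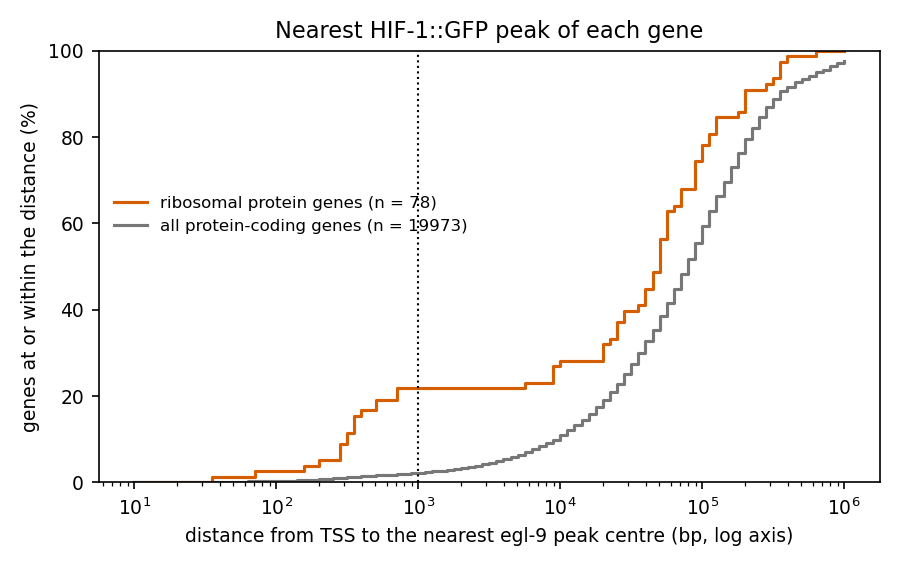
Share of genes (y axis, %) whose TSS lies at or within a given distance of the nearest peak centre of egl-9 mutants (x axis, bp, log scale), for the 78 ribosomal protein genes and all 19973 protein-coding genes; the dotted line marks 1000 bp. The curve of the ribosomal protein genes reaches 21.8% at 704 bp and stays level until 5158 bp, whereas the curve of all genes is at 2.27% at 1000 bp and climbs without a step.

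Peaks lay upstream of 16 of 17 bound members (94.1%, interval 73 to 99%), and 13 of 17 lay between 100 and 500 bp upstream (76.5%). Among 436 other genes near a peak the shares were 84.9% upstream and 51.4% between 100 and 500 bp upstream. The median position of the centre (negative upstream) was -308 bp for the members and -234 bp for the others. Many worm transcripts are trans-spliced, so an annotated TSS can lie downstream of the place where transcription begins.

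**Figure D3:**
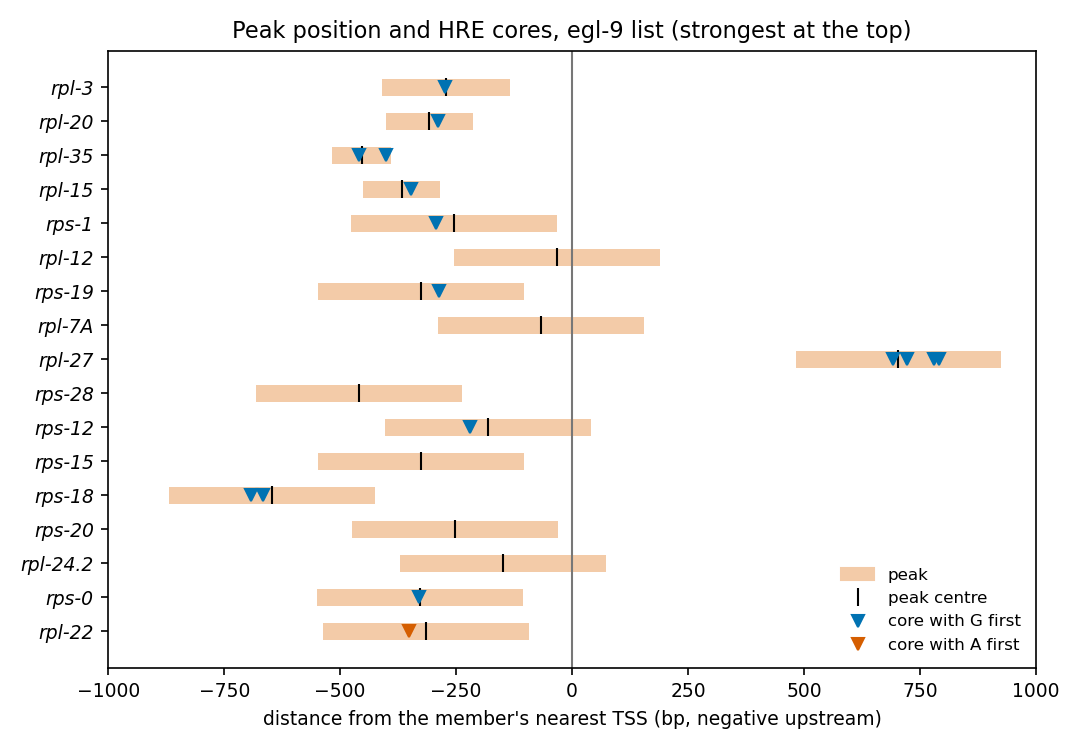
Extent of each peak of egl-9 mutants (bars), its centre (black ticks) and the HRE cores within 100 bp of the centre (triangles, blue for G first and orange for A first) relative to the nearest TSS of the ribosomal protein gene (x axis, bp, negative upstream), strongest peak at the top. Apart from rpl-27 at 704 bp downstream, centres run from 33 bp (rpl-12) to 647 bp (rps-18) upstream, and the only orange triangle is at rpl-22.

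The HRE core was present in that window at 11 of 17 member peaks (64.7%, interval 41.3 to 82.7%) and at 244 of 344 other promoter peaks (70.9%, interval 65.9 to 75.5%), a difference not past the threshold (odds ratio 0.752, 95% interval 0.247 to 2.55, Fisher exact p = 0.591, adjusted p = 0.739, two-sided). The core was searched as ACGTG or GCGTG on both strands, and CACGTG holds ACGTG on both. 6 of the 9 large subunit genes and 5 of the 8 small subunit genes had one.

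The members differed in which form of the core they held. ACGTG was present at 1 of 17 member peaks (5.88%, interval 1.05 to 27%), that of rpl-22, and at 154 of 344 other promoter peaks (44.8%, interval 39.6 to 50.1%). The odds ratio was 0.0775 (95% interval 0.00183 to 0.509, Fisher exact p = 0.00163, two-sided). This was 1 of the other settings of the comparison above, and after adjustment over all 27 tests, other settings included, p was 0.044. GCGTG was present at 10 of 17 member peaks (58.8%, interval 36 to 78.4%) and 145 of 344 others (42.2%, interval 37 to 47.4%), with an odds ratio of 1.96 (95% interval 0.655 to 6.21, p = 0.212 by the Fisher exact test), a setting added after the data were seen. Of the 16 core sites in member windows 15 were GCGTG (93.8%), against 187 of 436 sites (42.9%) in the other windows. Of those 15, 4 lay in the single window of rpl-27, whose peak centre was nearer to the TSS of egl-30.

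ACGTG was rare at strong and at weak member peaks. None of the 6 member peaks among the 100 strongest had it, against 28 of 49 other promoter peaks of those ranks (57.1%), and 1 of 11 weaker member peaks had it, against 126 of 295 (42.7%). The hexamer TACGTG was in 0 of 17 member windows and in 20.6% of the other promoter peak windows, and the E-box CACGTG in 0 of 17 and in 11.9%. The repeat GAGAGA, or TCTCTC on the other strand, was in 5 of 17 member windows (29.4%) and 39.8% of the others. The letters that were not found are absent from these windows only.

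Where a member peak held a core, the core was close to the centre. The nearest core was at most 40 bp from the centre in the 11 windows, with a median of 19 bp, and the median was 32.5 bp over 244 other windows with a core. In windows of 50 bp to each side the core was still present at 11 of 17 member peaks, and at 48.5% of the other promoter peaks (odds ratio 1.94, 95% interval 0.64 to 6.54, Fisher exact p = 0.221).

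**Figure D4:**
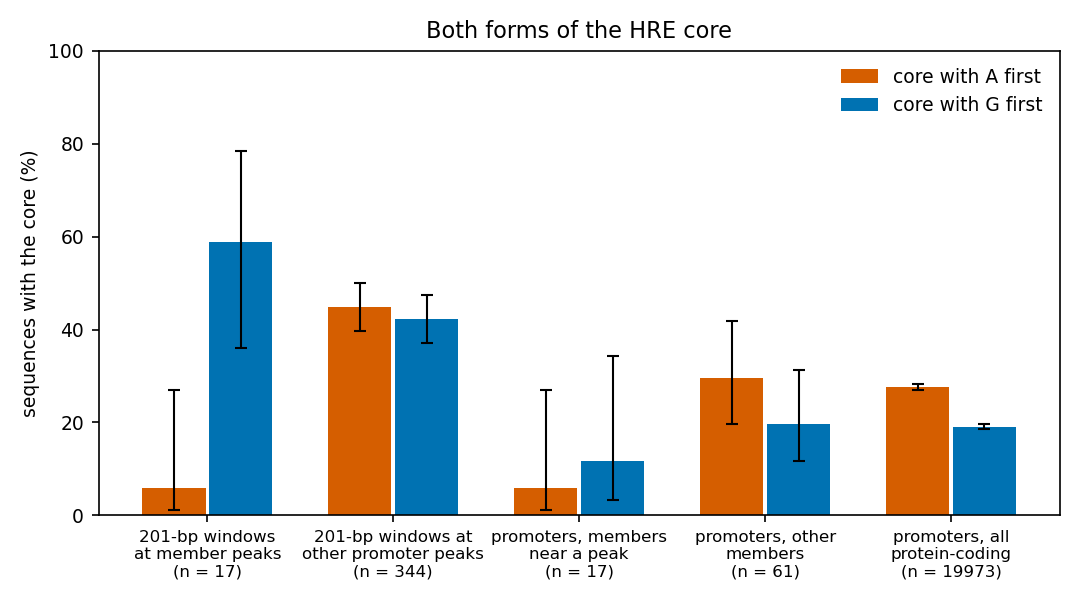
Share of sequences (y axis, %) with the HRE core that begins with A (orange) or with G (blue), in windows of 100 bp to each side of peak centres and in promoters from 250 bp before to 50 bp after the gene's 5' end; bars are shares and error bars Wilson 95% intervals, with n under each group. At member peaks A first is at 5.88% and G first at 58.8%, while at other promoter peaks they are at 44.8% and 42.2%.

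The promoters themselves did not separate bound from unbound members by the core. In the window from 250 bp before to 50 bp after the gene's 5' end, which misses most of the peak centres, 3 of 17 bound members (rpl-3, rpl-22 and rps-12) had a core (17.6%, interval 6.19 to 41%) and 25 of 61 unbound members (41%, interval 29.5 to 53.5%), and the share over all 19973 promoters was 41%. The odds ratio was 0.313 (95% interval 0.0522 to 1.29, Fisher exact p = 0.0924, adjusted p = 0.462, two-sided). With promoters extended to 500 bp upstream and 100 bp downstream, 11 of 17 bound and 45 of 61 unbound members had a core (odds ratio 0.656, p = 0.545 by the Fisher exact test). Most unbound ribosomal protein genes thus also had the letters of a core in that wider window. The share over all promoters was not counted for it, so whether this is particular to these genes was not tested. ACGTG was in 1 of 17 bound (5.88%), 18 of 61 unbound (29.5%) and 27.6% of all promoters. The bound member was rpl-3, where it lay outside the window at the peak centre, and not rpl-22. GCGTG was in 11.8%, 19.7% and 19.1% of the same groups. TACGTG was in 5.88%, 6.56% and 7.04% of the groups in that order, and CACGTG in 0%, 1.64% and 5.82%. GAGAGA was in 17.6%, 23% and 21.8%.

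The peak of 14 of 17 bound members was also near another protein-coding gene, a share of 82.4% (interval 59 to 93.8%). Of the 344 other peaks near genes 31.4% were near at least 2 genes. Member peaks were picked through their genes, and a peak near several genes has more chances to be picked, so the shares are not selected alike. In 12 members the other gene near the peak ran on the opposite strand. In 11 members the peak centre lay between the divergent TSSs, as at rpl-20 and Y17G9B.5 (462 bp between TSSs), rpl-12 and lin-54, a DREAM complex subunit (393 bp), rpl-7A and set-21, which encodes a SET domain protein (254 bp), and rps-1 and ifet-1, a translational repressor (768 bp). The others were rpl-15 with K11H12.8 (814 bp), rpl-22 with ify-1 (437 bp), rps-0 with rbg-3 (373 bp), rps-12 with ska-3 (293 bp), rps-15 with F36A2.9 (781 bp), rps-19 with hsr-9 (445 bp) and rps-20 with ekl-4 (397 bp). At rps-18 the neighbour sec-61.A, for a subunit of the protein translocation channel, had its TSS 415 bp away and the peak centre lay 232 bp inside it. rps-28 shared its peak with Y41D4B.4 on the same strand at 879 bp. Only at rpl-3, rpl-35 and rpl-24.2 was there no TSS of another protein-coding gene within 1000 bp of the peak centre. For 9 of the 17 the ribosomal protein gene had the TSS nearest to the peak, compared with 75% of the 436 other genes near a peak.

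With a divergent protein-coding gene within 1000 bp counted as a shared promoter, 12 of 17 bound (70.6%, interval 46.9 to 86.7%) and 35 of 61 unbound members (57.4%, interval 44.9 to 69%) had one (odds ratio 1.77, 95% interval 0.501 to 7.23, Fisher exact p = 0.407, adjusted p = 0.739, two-sided). The share over all protein-coding genes was 18.8%. Within 500 bp, 9 of 17 bound (52.9%, interval 31 to 73.8%) and 10 of 61 unbound members (16.4%, interval 9.16 to 27.6%) had one, with an odds ratio of 5.57 (95% interval 1.51 to 21.6, Fisher exact p = 0.00383, and 0.0517 after adjustment over the same 27 tests). Of all protein-coding genes 9.88% had such a neighbour, and of the 436 other genes near a peak 23.6%. Members with a divergent gene within 500 bp were bound in 9 of 19 cases (47.4%), compared with 5.68% of all 1973 protein-coding genes arranged in that way. The 59 members without one were bound in 8 cases (13.6%, interval 7.03 to 24.5%). The share over all protein-coding genes, with or without such a neighbour, was 2.27%. Both genes of a close divergent pair count as near a peak that lies between them, and which of them a peak serves was not tested.

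snoRNA genes lay within the span of 13 of 78 members (16.7%), compared with 0.996% of all protein-coding genes. Bound members had a snoRNA gene in the span or within 1000 bp of a TSS in 4 of 17 cases (rpl-12, rpl-15, rpl-7A and rps-12, 23.5%) and unbound members in 12 of 61 (19.7%), a difference not past the threshold (odds ratio 1.25, 95% interval 0.252 to 5.11, Fisher exact p = 0.74, adjusted p = 0.74, two-sided). Within the span alone the counts were 3 of 17 (rpl-15, rpl-7A and rps-12) and 10 of 61. Of 199 snoRNA hosts among all protein-coding genes 12.6% were near a peak. The peak centre lay 261 bp from the nearest snoRNA gene at rps-12, 349 bp at rpl-7A, 582 bp at rpl-15 and 1607 bp at rpl-12. A small RNA gene (tRNA, snoRNA or snRNA) lay at most 500 bp from the peak centre at 2 of 17 member peaks (rps-12 and rpl-7A, 11.8%) and at 12.2% of the 344 other promoter peaks, nearly the same share. The other 13 bound members had their nearest snoRNA gene at least 3568 bp away.

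**Figure D5:**
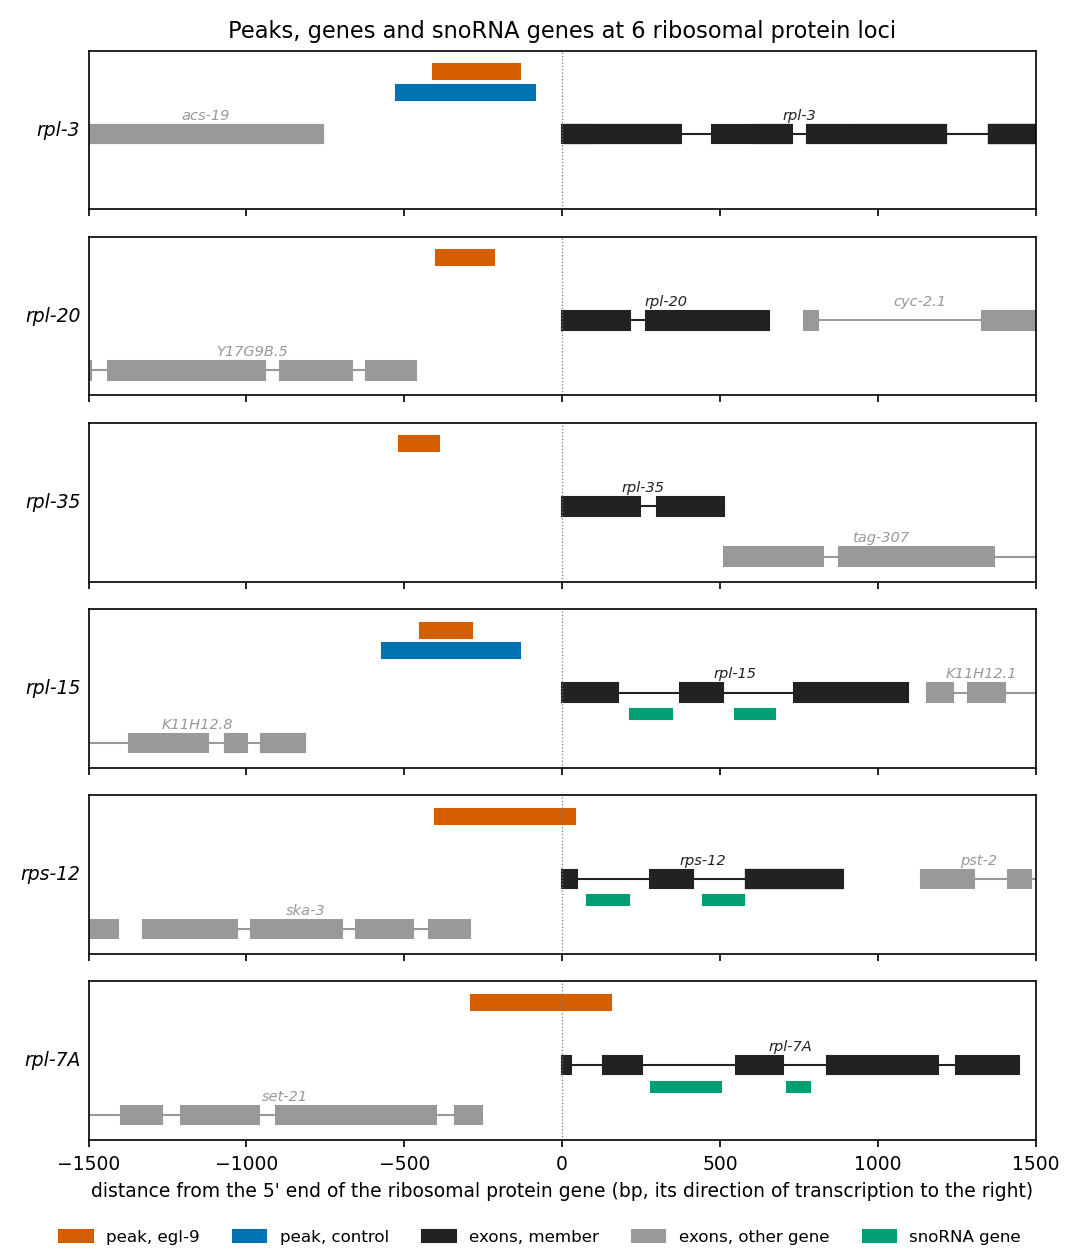
Map of 6 ribosomal protein loci drawn from the gene's 5' end (x axis, bp, direction of transcription to the right), with peaks of egl-9 mutants (orange), control peaks (blue), exons of the ribosomal protein gene (black) and of other protein-coding genes (grey, lower row for the opposite strand), and snoRNA genes (green). The peaks lie upstream or across the 5' end and not over the intronic snoRNA genes of rpl-15, rps-12 and rpl-7A, and control peaks are drawn at rpl-3 and rpl-15 only.

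Bound members were spread over 4 of the 6 nuclear chromosomes. They were 5 of 18 members on chromosome III (3.14% of all protein-coding genes there were near a peak), 6 of 17 on chromosome IV (2.35%), 5 of 23 on chromosome I (2.47%) and 1 of 10 on chromosome II (2.38%). None of the 8 members on chromosome V (1.48%) and none of the 2 on chromosome X (2.42%) was bound. With 0 of 8 the share on chromosome V could be as high as 32.4% (Wilson 95% interval), so these counts do not set V and X apart.

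Other genes of the translation machinery gave different counts, described beside the 2.27% of all protein-coding genes. Of 6 ribosomal proteins outside the name prefixes (the stalk proteins rla-0, rla-1 and rla-2, the ubiquitin fusions ubl-1 and ubq-2, and rack-1), 0 were near a peak. Of 70 mitochondrial ribosomal protein genes 2 were (2.86%), mrps-21 with a signal of 193 at 997 bp and mrpl-53 with 56.7. Of 33 initiation factor genes 2 were (6.06%), iff-2, which encodes a form of eIF5A (179), and eif-3.C (111), and their windows held 2 and 1 GCGTG and no ACGTG. Of 15 ribosome biogenesis genes 1 was (6.67%), nol-56 (57.1). Of 7 elongation factor genes with their kinase 6 were (85.7%). They were eef-1A.1 (98.8), eef-1G (90), efk-1, the kinase that inhibits eEF2 (83.8), eef-1B.1 (83.6), eef-1A.2 (70.5) and eef-2 (65.3). Their peaks held GCGTG at eef-1B.1, eef-1A.2 and eef-2, ACGTG at eef-1A.1 and efk-1, and neither at eef-1G. The core with G first and without A first was thus also found at peaks of some other translation genes. The window of mrps-21 held 1 ACGTG and no GCGTG, and those of mrpl-53 and nol-56 held neither. In control animals no gene of these lists was near a peak.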

How the data were processed

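ChIP-seq libraries of 2 genotypes were analysed from the peak lists that the authors deposited, 1 for each genotype. BWA and WBcel235 are named in the submitters' processing notes. Per the study's methods, peaks were called with SPP and thresholded for reproducibility between replicates. The deposited signal of each peak is the peak caller's value and was used only to rank peaks within a list. Mitochondrial peaks (19 and 18) were left out, and neither depths nor replicate values were analysed here.

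Members and lists were chosen with earlier results of these data known. TSSs came from Ensembl release 115. Every member near a peak was named, unbound members once, and up to 6 genes near a peak by signal from each other list (3 names, nol-1, nol-5 and K01G5.5, were not found). No canonical transcript is marked in the annotation, so promoters start from the gene's 5' end. Shares were compared by Fisher exact tests with conditional odds ratios (Python 3.11.15, SciPy 1.17.1), with 0.05 as the threshold for adjusted p. Peak coordinates are printed 1-based. Scripts were tested on simulated data. The sequence at rpl-3 is not reported here.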

Additional observations from a re-analysis of the deposited data

How the results depend on the processing

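The 17 bound members of egl-9 mutants became 15 at 500 bp, 17 at 2000 bp, 15 without peaks at small RNA genes and 15 without peaks overlapping a control peak, where 1.63%, 3.33%, 2% and 2.14% of all protein-coding genes were near a peak. They fell to 11 in the 302 strongest peaks, to 9 when a peak counted only for its nearest gene, and to 4 at or above the lowest control signal, where 1.16%, 1.68% and 0.315% of all protein-coding genes remained near a peak. The control count was 2 under each of its alternatives. The comparison of the subunits changed direction in the 302 strongest peaks (odds ratio 1.18) and with the nearest gene only (1.36), never past the threshold. The comparison of cores at peaks changed direction with windows of 50 bp to each side (1.94) and with GCGTG alone (1.96), and had an unadjusted p under 0.05 with ACGTG alone (0.0775, Fisher exact p = 0.00163, 0.044 adjusted over all 27 tests). That of shared promoters did so with TSSs within 500 bp (5.57, Fisher exact p = 0.00383), but not after that adjustment (0.0517). Core in promoters and snoRNA genes kept direction and side under each alternative run. The TSS of the canonical transcript was not run, because the annotation marks none. The gene's 5' end, chosen after seeing the data, gave 17 and 2. No paired analysis was possible because each genotype's replicates were merged into 1 list, and leaving out a replicate was not possible for the same reason.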

Other observations

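The windows of the ribosomal protein genes shared short words beside the HRE core. This search was made after the sequences were seen, words were picked for their frequency in the member windows, and no test was made. Of 8192 words of 7 letters (both strands), 35 were in at least 5 of the 17 member windows, most of them rich in A or T. Of these 35, 9 were in under 6% of the 344 other promoter peaks. ACACTCG was in 6 member windows (35.3%), in 3.78% of other promoter peak windows and in 1.65% of all promoters. ACCGTAG was in 5 (29.4%), against 2.33% and 1.56%, and GCTCCAC in 5, against 3.49% and 2.57%. AACACGC, which contains the core with G first as read on the other strand (CACGC), was in 5, against 5.81% and 2.54%. In promoters of the 61 unbound members the shares were 8.2% for ACACTCG and 1.64% for ACCGTAG, 3.28% for GCTCCAC and 1.64% for AACACGC.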
